A study of Mus musculus with 6 samples.

Results

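Transcripts of 10 genes of prostaglandin and leukotriene production and sensing were examined in MC38 tumors: the cyclooxygenases Ptgs1 and Ptgs2, the prostaglandin E synthase Ptges, the prostaglandin E2 (PGE2) receptors Ptger1, Ptger2, Ptger3 and Ptger4, the 5-lipoxygenase Alox5, its partner protein Alox5ap (FLAP) and the cysteinyl leukotriene receptor Cysltr1. They were taken by gene symbol, and each symbol matched a row, so that 10 of the 33965 genes of the table are described. The MC38 line comes from a mouse colon carcinoma, and the tumors grew under the skin of C57BL/6 mice, which the study describes as females bought at 6 weeks of age. The PBS group comprised 3 tumors from mice given PBS, and the GB2 group comprised 3 tumors from mice given GB2, a prodrug in which the STING agonist MSA-2 and artesunate are joined through a disulfide bond. The dose of 10 mg/kg is that of the study's MC38 model, and the labels do not give it for the sequenced tumors. The labels name no transgene or knockout in either group.

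Eicosanoids are made from arachidonic acid, which phospholipases release from membranes. Cyclooxygenases turn it into prostaglandin H2, from which terminal synthases make PGE2, prostacyclin, thromboxane and prostaglandin D2, whereas 5-lipoxygenase, helped by FLAP, turns it into leukotrienes. In tumors PGE2 is best known for restraining dendritic cells, NK cells and T cells through Ptger2 and Ptger4, and leukotrienes are known as attractants and activators of myeloid cells.

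Each value is a sum over all cells of a tissue piece, so fewer cells of a type and less RNA per cell cannot be told apart. Total estimated counts ranged from 64764405 to 83690056 per tumor, and every GB2 library was larger than every PBS library. About 4 counts stand for 1 read pair, so a gene at 12 counts rests on 3 read pairs, taken here as the detection floor of a tumor. Levels are given as CPM, counts scaled to library size, which suit the comparison of 1 gene between tumors, or as FPKM, which are divided by transcript length and suit the comparison of genes. Values of a group are listed in the order of tumors 1, 2 and 3, and a log2 difference is the fold change of GB2 over PBS tumors on the log2 scale, given with its standard error (SE). Epithelial markers were low in both groups, at a summed 6.85 to 8.05 CPM in the PBS group and 8.25 to 13.0 CPM in the GB2 group over 8 genes including Epcam and Krt8. Hemoglobin and other erythroid transcripts summed to 507 to 7473 CPM in PBS tumors and 94.6 to 1271 CPM in GB2 tumors. Nothing in the labels states that the 3 tumors of a group came from separate mice, so the tests measure the spread between these samples.

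Promoter sequences are shown for Ptgs1, Ptgs2 and Ptges, because COX-1, COX-2 and PGE synthase are the enzymes of the PGE2 branch among the 10 genes. Each sequence is the 250 bases before the start of the gene in RefSeq (GRCm38.p6), read 5′ to 3′ on the strand of the gene, and 7 of the 10 genes had an entry. Capitals mark matches on either strand to TTNNGCAA (C/EBP-type), GGGCGG (GC box) and GAGGAA (PU.1-type core), chosen after the sequences were seen.
Ptgs1 promoter, chr2:36230176-36230425, plus strand: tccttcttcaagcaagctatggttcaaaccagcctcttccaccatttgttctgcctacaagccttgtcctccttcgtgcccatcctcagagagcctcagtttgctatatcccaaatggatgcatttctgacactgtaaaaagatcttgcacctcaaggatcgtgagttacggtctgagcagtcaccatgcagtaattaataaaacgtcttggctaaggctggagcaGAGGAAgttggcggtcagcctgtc
Ptgs2 promoter, chr1:150099781-150100030, plus strand: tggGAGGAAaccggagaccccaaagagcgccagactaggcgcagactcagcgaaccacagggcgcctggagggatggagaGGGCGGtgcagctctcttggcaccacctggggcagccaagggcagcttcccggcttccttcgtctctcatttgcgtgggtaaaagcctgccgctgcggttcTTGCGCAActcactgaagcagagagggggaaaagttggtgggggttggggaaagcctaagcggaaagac
Ptges promoter, chr2:30903298-30903547, minus strand: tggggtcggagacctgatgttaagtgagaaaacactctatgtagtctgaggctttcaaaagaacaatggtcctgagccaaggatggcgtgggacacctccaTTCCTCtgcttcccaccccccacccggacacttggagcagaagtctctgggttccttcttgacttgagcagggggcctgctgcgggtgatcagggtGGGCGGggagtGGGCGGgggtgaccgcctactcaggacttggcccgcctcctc
The Ptgs2 window held a TTNNGCAA match 69 bases before the start, a GC box 170 bases before it and a GAGGAA match 247 bases before it. The Ptges window held GC boxes 53 and 42 bases before the start and a GAGGAA match on the opposite strand 149 bases before it. The Ptgs1 window held the GAGGAA match alone, 24 bases before the start. Among 32851 RefSeq promoter windows of this length, 9.56% held TTNNGCAA, 32.7% held GGGCGG and 23.3% held GAGGAA. A match is a run of letters and does not show binding. TATAAA, present in 12.4% of the windows, was in none of the 7 promoters of the genes described here.

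The comparison of GB2 with PBS tumors asked whether prostaglandin and leukotriene genes differed after treatment. Alox5ap had the smallest p of the 10 genes and was 3.24-fold higher in the GB2 group, Ptgs2, Ptges and Cysltr1 were 2.58-fold to 2.63-fold higher, whereas Ptgs1 had nearly equal group means. None of the 10 passed edgeR's quasi-likelihood test at a Benjamini-Hochberg adjusted p under 0.05 with a 2-fold difference or more, and neither did any other gene, so that 0% of 19602 tested genes were called. Under the same test 1360 genes had an unadjusted p under 0.05, while DESeq2 called 385 genes and edgeR's likelihood ratio test 255, with Alox5ap the only member called by either. At an unadjusted p under 0.05 and at least 2-fold, 4 of the 10 genes were higher in the GB2 group (Alox5ap, Ptges, Ptgs2 and Cysltr1), against 3.74% of all tested genes, and 0 were lower, against 0.918%. The 3 GB2 values lay above all 3 PBS values for 5 of the 10, the same 4 and Ptger3, against 8.61% of all tested genes, and below them for 0, against 6.68%. All 10 genes passed the filter on low counts, but Ptger2 and Ptger3 reached its limit in only 1 PBS tumor, and Ptger4 and Alox5 in 2, so that these 4 entered the test through their GB2 values. Ptger3 is the only one of them among the 5 genes just named. The 4 genes past the unadjusted limits were the same when every gene with a count was tested. Which members passed depended on single tumors. Alox5ap alone passed without GB2 tumor 1, Alox5ap and Ptges passed without PBS tumor 3 or GB2 tumor 2, and Alox5ap and Ptgs2 without GB2 tumor 3. Alox5ap, Ptges and Ptgs2 passed without PBS tumor 1, and Alox5ap, Cysltr1 and Ptger2 without PBS tumor 2. In that last case both remaining PBS tumors were under the floor for Ptger2, at 4 and 8 counts.

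**Figure D1:**
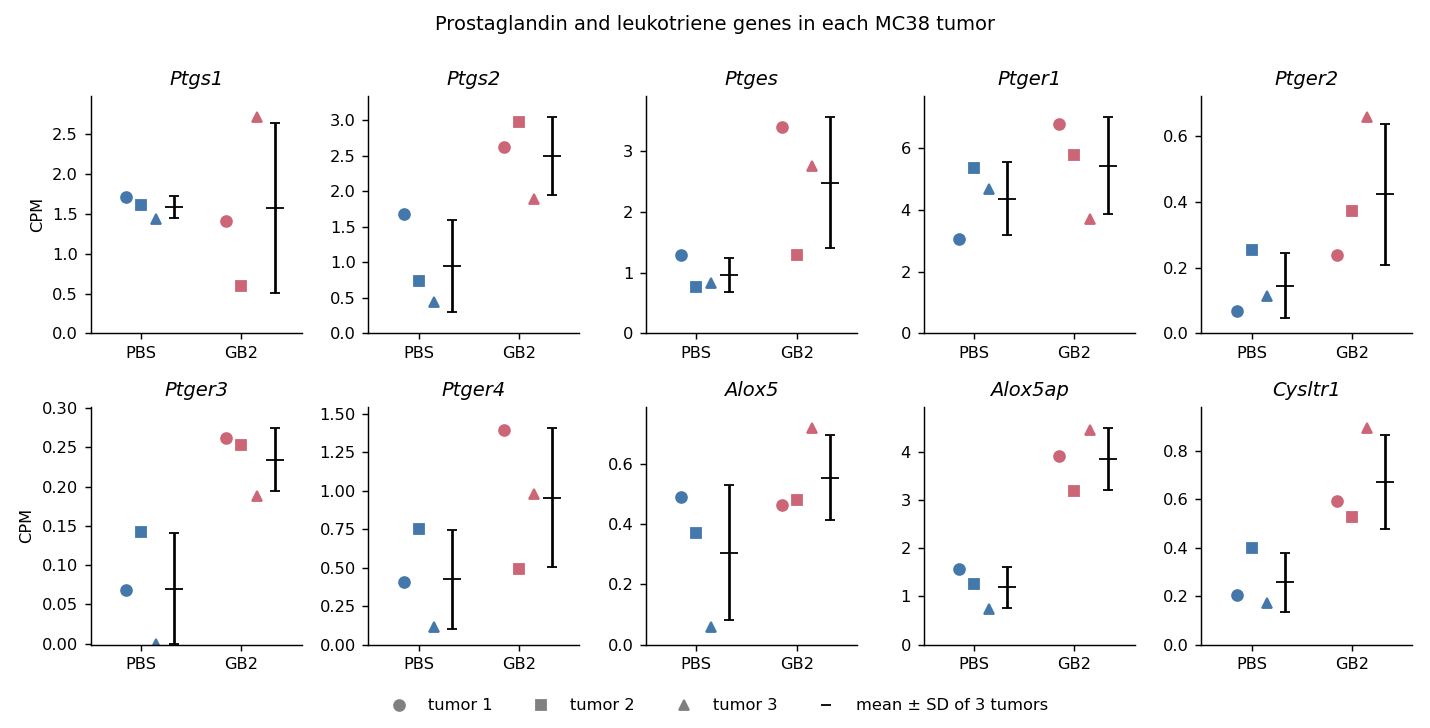
Level of each gene in CPM (linear axes, a scale of its own in each panel) in the 3 PBS and 3 GB2 tumors; symbols mark the tumor number, which does not link the groups, and bars give mean ± SD. Groups are apart in Ptgs2, Ptges, Ptger3, Alox5ap and Cysltr1, though in Ptges only just (1.285 against 1.286 CPM), and overlap in the other 5 panels.

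Ptgs1 encodes COX-1, the constitutive cyclooxygenase, and lies at chr2:36120438-36142284 in the positions of the table. It stood at 1.71, 1.62 and 1.44 CPM in the PBS group against 1.42, 0.589 and 2.72 CPM in the GB2 group. The PBS tumors were close together, and the GB2 tumors held both the lowest and the highest value of the 6. The group means were 1.59 ± 0.135 CPM (SD, n = 3) and 1.58 ± 1.07 CPM (SD, n = 3), and edgeR estimated a log2 difference of -0.01 (SE 0.53, adjusted p = 0.996) with a sign that flips under upper-quartile scaling (0.0094) and total-count scaling (0.0625). The log2 difference was -0.66 without GB2 tumor 3. Platelet markers, which mark cells rich in COX-1, summed to 2.77 to 6.53 CPM in the PBS group and 4.196 to 6.55 CPM in the GB2 group over 5 genes. Their part in the Ptgs1 values was not tested.

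Ptgs2 encodes COX-2, the cyclooxygenase induced by inflammatory signals and growth factors (chr1:149975782-149983978 of the table). The PBS group had 1.67, 0.738 and 0.439 CPM, and the GB2 group had 2.62, 2.97 and 1.89 CPM. The groups did not overlap, and PBS tumor 1 came near to GB2 tumor 3. The mean was 0.950 ± 0.645 CPM (SD, n = 3) in the PBS group and 2.50 ± 0.549 CPM (SD, n = 3) in the GB2 group, a log2 difference of 1.39 (SE 0.52) with an unadjusted p of 0.0305 and an adjusted p of 0.653 by edgeR. The unadjusted p was 0.0918 with PBS tumor 2 left out, 0.0624 with PBS tumor 3 left out, 0.0614 with GB2 tumor 1 left out and 0.0835 with GB2 tumor 2 left out. Without PBS tumor 1 the log2 difference was 2.09 (unadjusted p = 0.00182 by edgeR). GB2 tumor 2, the lowest of its group for Ptgs1, was the highest for Ptgs2. The FPKM ratio of Ptgs2 to Ptgs1 was 0.846, 0.387 and 0.256 in the PBS group against 1.59, 4.35 and 0.593 in the GB2 group. COX-2 message outnumbered COX-1 message in GB2 tumors 1 and 2 and in no other tumor, and the groups overlapped. The log2 ratio differed by 1.79 (exact two-sided permutation test over 6 tumors, p = 0.2, adjusted p = 0.35 over the 7 ratios compared), where 0.1 is the smallest p that 3 against 3 tumors allow.

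Ptges encodes microsomal PGE synthase-1, the inducible terminal enzyme that works with COX-2 (chr2:30779483-30793309 of the table). Its levels were 1.285, 0.766 and 0.835 CPM in the PBS group against 3.39, 1.286 and 2.75 CPM in the GB2 group. GB2 tumor 2 was level with PBS tumor 1, and GB2 tumors 1 and 3 stood well above. By edgeR the log2 difference was 1.37 (SE 0.45), with an unadjusted p of 0.018 and an adjusted p of 0.556. Leaving out PBS tumor 2 gave an unadjusted p of 0.0606, leaving out GB2 tumor 1 gave 0.0663, and leaving out GB2 tumor 3 gave 0.0503. The other PGE synthases had groups that overlapped: Ptges2, a membrane-associated form, had 3.19 ± 0.398 FPKM in the PBS group and 2.97 ± 0.0916 FPKM in the GB2 group, and Ptges3, a cytosolic form and Hsp90 co-chaperone, had 88.0 ± 41.8 and 70.1 ± 6.45 FPKM (SD, n = 3 each). The FPKM ratio of Ptges to Ptges2 was 0.0747, 0.0630 and 0.0690 in the PBS group against 0.292, 0.101 and 0.239 in the GB2 group. The ratio was higher in each GB2 tumor than in any PBS tumor, and the log2 difference of 1.44 met the smallest possible p (exact permutation test, p = 0.1, adjusted p = 0.35).

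**Figure D2:**
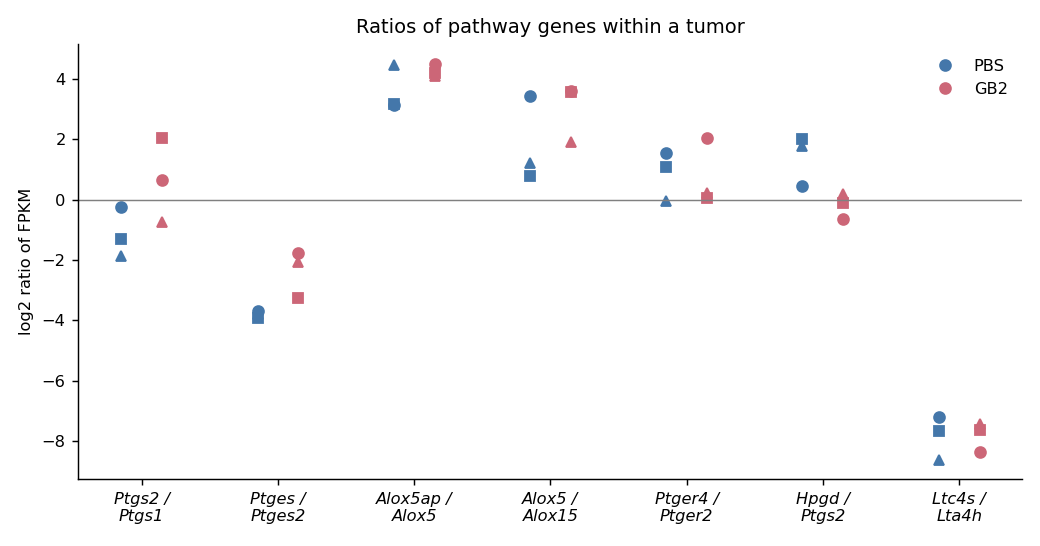
Log2 ratio of FPKM of paired pathway genes within each of the 3 PBS and 3 GB2 tumors (0.01 FPKM added to each gene), where 0 stands for equal levels. Ptges to Ptges2 is higher and Hpgd to Ptgs2 lower in every GB2 tumor than in any PBS tumor, and the other 5 ratios overlap.

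Hpgd, the dehydrogenase that inactivates PGE2, gave the opposite order when set against COX-2. Its own level was 0.466 ± 0.157 FPKM in the PBS group and 0.468 ± 0.105 FPKM in the GB2 group (SD, n = 3 each). The ratio of Hpgd to Ptgs2 was 1.38, 4.18 and 3.65 in the PBS group against 0.638, 0.927 and 1.15 in the GB2 group. Every PBS tumor held more Hpgd than Ptgs2 per length, and GB2 tumors 1 and 2 held less. The log2 ratio differed by -1.58 (exact permutation test, p = 0.1, adjusted p = 0.35).

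Ptger1 encodes EP1, the calcium-coupled PGE2 receptor, and had the highest FPKM of the 4 receptors. Its values were 3.04, 5.36 and 4.70 CPM in the PBS group against 6.80, 5.80 and 3.71 CPM in the GB2 group, which overlapped. The log2 difference was 0.31 (SE 0.34, edgeR, adjusted p = 0.844). The libraries were made with a dUTP protocol that keeps strand, but the sources used here do not say whether counting used it, so the values of Ptger1 and of the other 9 genes may hold reads from the opposite strand.

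Ptger2 (EP2) and Ptger4 (EP4) are the cAMP-raising receptors through which PGE2 acts on immune cells. Ptger2 had 0.0676, 0.255 and 0.113 CPM in the PBS group against 0.238, 0.373 and 0.659 CPM in the GB2 group, with PBS tumor 2 above GB2 tumor 1. Ptger4 had 0.406, 0.752 and 0.113 CPM in the PBS group against 1.39, 0.493 and 0.976 CPM in the GB2 group, with PBS tumor 2 above GB2 tumor 2. Both overlapped between groups, and each had its highest value in a GB2 tumor. Their log2 fold changes were 1.52 (SE 0.73) for Ptger2 and 1.17 (SE 0.72) for Ptger4 by edgeR (adjusted p = 0.757 and 0.762). Without PBS tumor 2 they were 2.201 for Ptger2 (unadjusted p = 0.0364 by edgeR) and 1.89 for Ptger4 (unadjusted p = 0.0508). Other omissions lowered them, Ptger2 to 1.06 without GB2 tumor 3 (unadjusted p = 0.279 by edgeR), and Ptger4 to 0.72 with PBS tumor 3 left out (0.271) and 0.79 with GB2 tumor 1 left out (0.370). The ratio of Ptger4 to Ptger2 did not separate the groups (log2 difference -0.09, exact permutation test, p = 1). Ptger4 overlaps Ttc33 on the opposite strand, which had 23.5 and 19.3 CPM in the PBS and GB2 groups, and the same limit on strand holds.

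Ptger3, which encodes the Gi-coupled receptor EP3, was at the edge of detection. It had 4, 10 and 0 counts in the PBS group against 22, 21 and 16 counts in the GB2 group. Each PBS tumor was under the floor of 3 read pairs and each GB2 tumor was just over it, so no fold change is given. Per length the order of the receptors in the GB2 group was Ptger1 at 0.972 ± 0.282, Ptger4 at 0.140 ± 0.0689, Ptger2 at 0.0771 ± 0.0410 and Ptger3 at 0.0381 ± 0.00535 FPKM (SD, n = 3), where the spreads of Ptger4 and Ptger2 overlapped, as did those of Ptger2 and Ptger3. The same order held for the PBS means of 0.750 ± 0.244, 0.0577 ± 0.0456, 0.0241 ± 0.0180 and 0.0111 ± 0.0117 FPKM, in which only Ptger1 stood clear of the others.

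Alox5ap encodes FLAP, which presents arachidonic acid to 5-lipoxygenase and is strongly expressed in myeloid cells (chr5:149201577-149224963 of the table). It stood at 1.57, 1.25 and 0.736 CPM in the PBS group against 3.91, 3.17 and 4.45 CPM in the GB2 group. The lowest GB2 tumor had more than the highest PBS tumor by a margin wider than the spread within either group. The means were 1.19 ± 0.422 CPM (SD, n = 3) and 3.84 ± 0.639 CPM (SD, n = 3), a log2 difference of 1.70 (SE 0.37) with an unadjusted p of 0.00215 and an adjusted p of 0.262 by edgeR. The adjusted p was 0.00164 by DESeq2 and 0.0248 by edgeR's likelihood ratio test, and it ran up to 0.857 over the 18 alternatives, that value being without GB2 tumor 3. Alox5ap kept an unadjusted p under 0.05 and at least a 2-fold difference in every alternative, each tumor left out in turn included.

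Alox5 encodes 5-lipoxygenase itself and was far lower. The PBS group had 0.490, 0.369 and 0.0566 CPM, and the GB2 group had 0.465, 0.481 and 0.718 CPM. The groups overlapped, since PBS tumor 1 exceeded GB2 tumors 1 and 2, and PBS tumor 3 had only 4 counts, the equivalent of 1 read pair. The log2 difference was 0.86 (SE 0.75, edgeR, adjusted p = 0.810). It was 0.37 without PBS tumor 3 (unadjusted p = 0.505 by edgeR) and 1.385 without PBS tumor 1 (unadjusted p = 0.137 by edgeR). Per length Alox5ap exceeded Alox5 by 9.58-fold, 9.91-fold and 37.4-fold in the PBS group and by 24.6-fold, 19.7-fold and 18.2-fold in the GB2 group. The log2 ratio differed by 0.68 between groups (exact permutation test, p = 0.3, adjusted p = 0.42), and with 0.01 FPKM added to each gene PBS tumor 3 lay above 2 of the GB2 tumors. Alox15, the 12/15-lipoxygenase, was listed at 0 in 4 of the 6 tumors.

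Cysltr1 encodes the CysLT1 receptor, the target of montelukast (chrX:105617952-105647285 of the table). Its levels were 0.203, 0.397 and 0.170 CPM in the PBS group against 0.596, 0.529 and 0.894 CPM in the GB2 group. The groups were apart, with GB2 tumor 2 and PBS tumor 2 nearest. EdgeR gave a log2 difference of 1.38 (SE 0.55), an unadjusted p of 0.0369 and an adjusted p of 0.684. With a single tumor left out, the unadjusted p stayed under 0.05 for PBS tumor 2 alone (0.0198) and ran from 0.053 to 0.134 for the other 5.

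The 10 genes did not rank the tumors alike. PBS tumor 3 was the lowest PBS tumor for 7 of the 10 and the highest for none, and PBS tumors 1 and 2 shared the highest places with 5 each. Among GB2 tumors, tumor 2 was lowest for 5 genes, among them Ptgs1, Ptges and Alox5ap, and highest only for Ptgs2. GB2 tumor 3 was highest for 5, Ptgs1, Ptger2, Alox5, Alox5ap and Cysltr1.

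The wider pathway was read from 5 lists of 61 other genes, of which 51 were tested. At an unadjusted p under 0.05 and at least 2-fold, 12 were higher in the GB2 group and 0 lower, and 17 had all GB2 values above all PBS values and 0 below, to be read against the same shares of all tested genes as before. Dpep2, among the 12, and Dpep2, Ptgis and Alox12e, among the 17, reached the filter limit in only 2 PBS tumors and entered the test through their GB2 values. The median log2 fold change of the 51 was 0.40, against -0.02 over all tested genes. None had an adjusted p under 0.05 by edgeR's quasi-likelihood test. The likelihood ratio test of edgeR called 4 of them (Pla2g7, Ptafr, Ptgr1 and Ptgfrn, adjusted p from 0.00192 to 0.0351), and DESeq2 called these 4 and Slco2a1, Ptgir and Cyp4f18 (adjusted p from 3.15e-05 to 0.0496). The 58 tested genes that the table itself annotates to KEGG arachidonic acid metabolism had a median of -0.0024, with 29 higher, 29 lower, 6 past the unadjusted limits upward and 0 downward. Of the genes annotated to the GO term for prostaglandin biosynthesis 17 were tested, with a median of 0.16, 11 higher and 4 past the limits upward. Of those annotated to the GO term for leukotriene biosynthesis 10 were tested, with a median of 0.71, 8 higher and 2 past the limits upward. The KEGG term and both GO terms share genes with the lists and the 10 genes. Among the KEGG genes past the limits, Pla2g5, Tbxas1, Ptges and Ptgs2 are shared in this way.

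Of the 17 tested genes of the arachidonate release list, 2 passed the unadjusted limits. The list is broader than its name, since it also holds Pla2g7 and the desaturases Fads1 and Fads2. Pla2g7, the secreted phospholipase that degrades platelet-activating factor and is made by macrophages, had 2.18, 1.49 and 1.17 CPM in the PBS group against 4.56, 7.19 and 8.38 CPM in the GB2 group. Its log2 difference was 2.05 (SE 0.37, edgeR, unadjusted p = 0.000666, adjusted p = 0.190). Pla2g5, a secreted phospholipase A2, had a log2 fold change of 1.45. Pla2g4a, the cytosolic phospholipase A2 that feeds both branches, was apart between groups at a log2 fold change of 0.65 (unadjusted p = 0.0433 by edgeR). That difference depended on GB2 tumor 3, without which it was 0.34 (unadjusted p = 0.185 by edgeR), and its unadjusted p was also over 0.05, from 0.0520 to 0.0977, with GB2 tumor 2 or any PBS tumor left out. Plaat3 was at -0.71 (unadjusted p = 0.0499) with groups that overlapped. Fads2, the delta-6 desaturase, had the highest level of the list at 69.8 ± 22.3 FPKM in the PBS group and 78.1 ± 8.37 FPKM in the GB2 group (SD, n = 3 each).

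Of the 14 genes of prostanoid synthesis and breakdown, 3 passed the unadjusted limits. These were Tbxas1, the thromboxane synthase, at a log2 fold change of 1.57, Ptgr1, a prostaglandin reductase that also inactivates leukotriene B4, at 1.75, and Slco2a1, the prostaglandin uptake carrier, at 1.65. Ptgis, the prostacyclin synthase, had 11, 16 and 0 counts in the PBS group against 67, 25 and 51 counts in the GB2 group, so that the groups were apart at a low level (unadjusted p = 0.097 by edgeR). Abcc4, which exports PGE2, was apart as well, at a log2 fold change of 0.46. The most abundant synthase by far was Ptgds, the lipocalin-type prostaglandin D synthase, at 485 ± 34.3 FPKM in the PBS group and 532 ± 178 FPKM in the GB2 group (SD, n = 3 each), while Ptges stood at 0.221 ± 0.0454 and 0.619 ± 0.280 FPKM. Hpgds, the hematopoietic prostaglandin D synthase, also exceeded Ptges, at 11.8 ± 1.20 and 16.7 ± 7.70 FPKM.

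**Figure D3:**
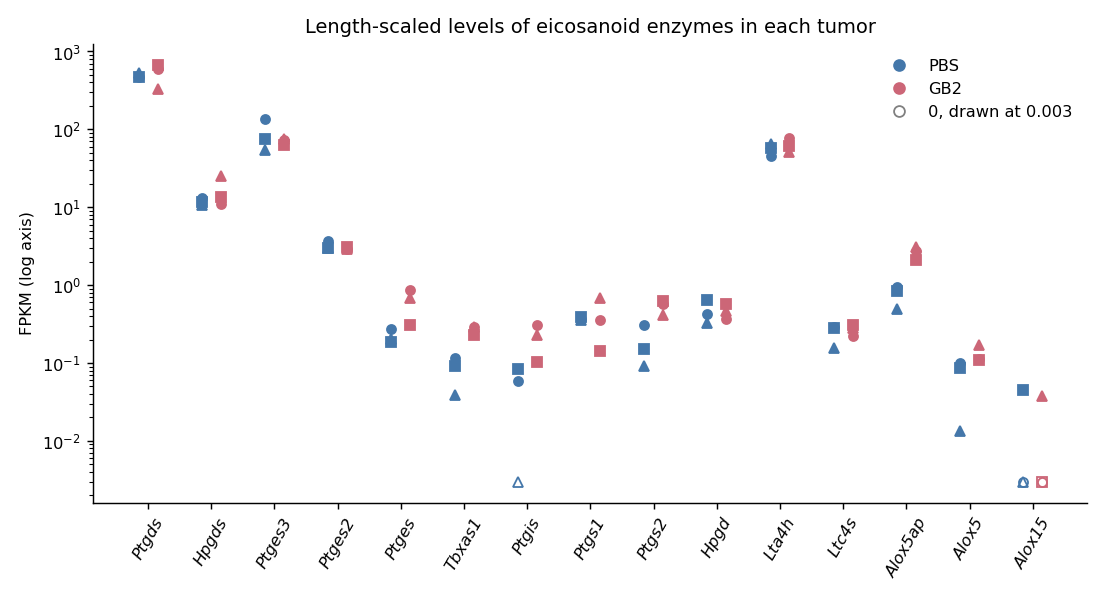
FPKM, scaled to transcript length, of eicosanoid enzymes in each of the 3 PBS and 3 GB2 tumors on a log axis (values of 0 drawn open at 0.003). Ptgds lies above all others in every tumor, Ptges and Ptgs2 lie below 1 FPKM in every tumor, and Alox5ap lies above Alox5 in every tumor.

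Among the prostanoid receptors outside the EP family, Ptgir, the prostacyclin receptor, had a log2 fold change of 1.48 and Ptgfrn, a partner protein of the prostaglandin F receptor, 1.40, both past the unadjusted limits. Tbxa2r, the thromboxane receptor, had 0.349 ± 0.191 FPKM in the PBS group and 0.453 ± 0.145 FPKM in the GB2 group (SD, n = 3 each). Ptgdr, Ptgdr2 and Ptgfr did not reach the filter on low counts.

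Among leukotriene and lipoxygenase enzymes, 3 of 12 tested genes passed the unadjusted limits. Cyp4f18, which inactivates leukotriene B4, had 0.524, 0.284 and 0.170 CPM in the PBS group against 1.29, 0.914 and 2.07 CPM in the GB2 group, a log2 difference of 2.13 (SE 0.56, edgeR, adjusted p = 0.345). Dpep1 and Dpep2, dipeptidases that turn leukotriene D4 into leukotriene E4, had log2 differences of 1.77 (2.55 without PBS tumor 1, 1.05 without GB2 tumor 3) and 1.85, Dpep2 being read from the more abundant of 2 rows with that symbol. Dpep1 no longer passed the limits without PBS tumor 2, PBS tumor 3 or GB2 tumor 3, nor did Dpep2 without GB2 tumor 1 or GB2 tumor 3. Ggt5, which turns leukotriene C4 into leukotriene D4, and Alox12e were apart at 1.07 and 0.96 without passing the limits. The enzymes that commit leukotriene A4 to either product had groups that overlapped: Lta4h had 56.2 ± 10.5 and 63.1 ± 12.8 FPKM, and Ltc4s 0.243 ± 0.0743 and 0.271 ± 0.0410 FPKM, in the PBS and GB2 groups (SD, n = 3 each). Cotl1, a 5-lipoxygenase partner and actin-binding protein, had the highest level of the list at 123 ± 4.05 and 129 ± 12.4 FPKM.

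Among the receptors for leukotrienes and related lipid mediators, Ptafr and Cmklr1 passed the unadjusted limits of 5 tested genes. Ptafr, the receptor for platelet-activating factor, had 0.744, 0.568 and 0.340 CPM in the PBS group against 2.62, 2.16 and 2.76 CPM in the GB2 group. Its log2 difference of 2.19 (SE 0.40) was the largest of the tested pathway genes other than the 10 (edgeR, adjusted p = 0.190). Cmklr1, the receptor for chemerin and resolvin E1, had a log2 fold change of 1.45, and of 2.115 without PBS tumor 2. It no longer passed the limits when PBS tumor 3 or any GB2 tumor was left out. Ltb4r1, the high-affinity leukotriene B4 receptor, was at 0.92 with overlapping groups, and Cysltr2 and Ltb4r2 did not reach the filter.

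**Figure D4:**
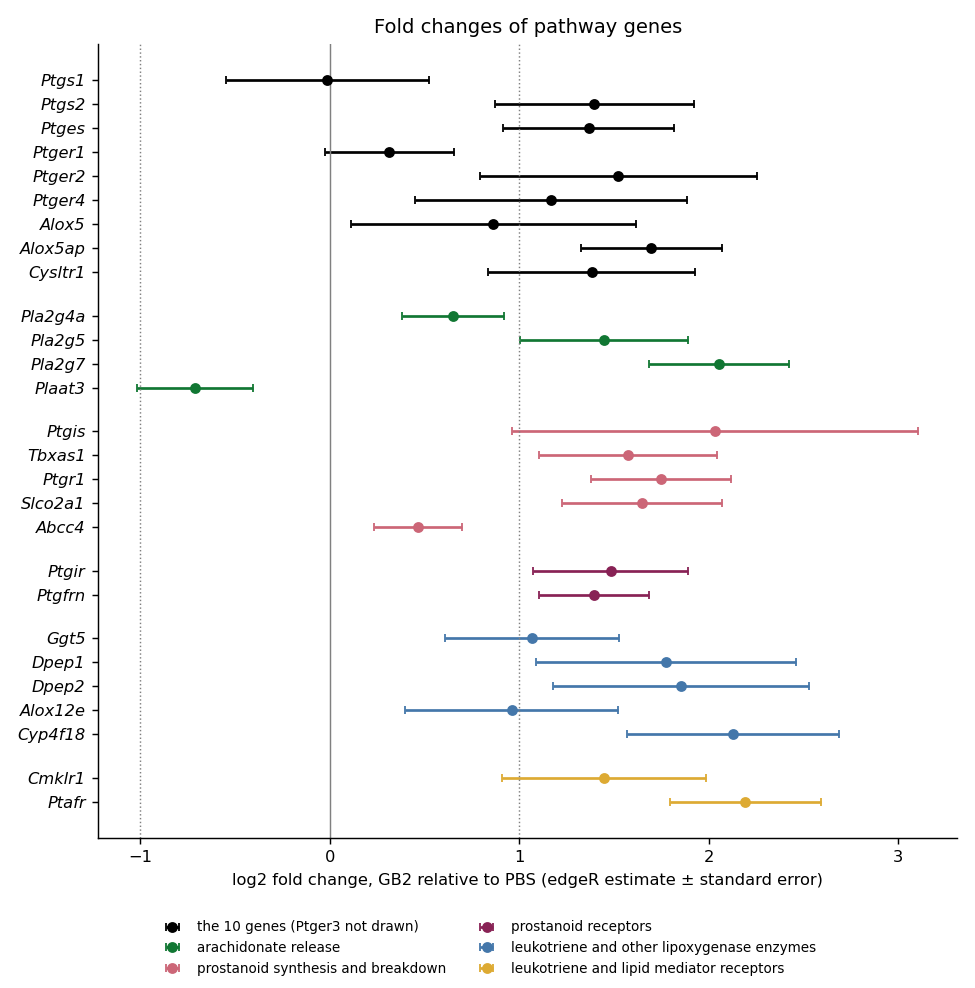
Log2 fold change of GB2 relative to PBS tumors with its standard error (edgeR, 3 tumors per group) for the genes described and for the other pathway genes with an unadjusted p under 0.05 or groups apart; dotted lines mark a 2-fold difference and Ptger3 is left out. Most estimates lie near or above 2-fold higher, Plaat3 lies below 0, and Ptgs1 lies at 0; genes of the lists that met neither rule are not drawn.

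Markers of several cell types differed between the groups. Of all tested genes 3.74% passed the unadjusted limits upward and 8.61% were apart upward, and the counts of markers are to be read against these shares. Over 11 macrophage markers, of which 11 were higher in the GB2 group and 10 passed the unadjusted limits, the summed level was 65.8 to 93.2 CPM in PBS tumors and 256 to 358 CPM in GB2 tumors. Fibroblast markers summed to 299 to 531 CPM and 991 to 1367 CPM over 9 genes, endothelial markers to 61.0 to 75.0 CPM and 123 to 141 CPM over 7, and mast cell markers to 5.23 to 6.89 CPM and 13.2 to 17.0 CPM over 9, with Tpsab1 and Ms4a2 under the floor. Among the endothelial markers Vwf was lower in the GB2 group, at a log2 fold change of -0.48, with groups that overlapped. Kit alone made up most of each mast cell sum, at 3.47 to 6.07 CPM in PBS tumors and 8.96 to 11.2 CPM in GB2 tumors. Skeletal muscle markers summed to 77.2 to 136 CPM and 140 to 183 CPM over 5 genes, of which 4 were apart. Neutrophil markers summed to 2.35 to 4.50 CPM and 9.64 to 12.5 CPM over 9 genes, with Ly6g at 0 in all 6 tumors. Dendritic cell markers summed to 8.46 to 11.2 CPM and 14.6 to 17.4 CPM over 8 genes, with Flt3 and Xcr1 under the floor. Of the 6 tested, 2 were apart, Itgax and Ccr7, though Ccr7 reached the filter limit in only 2 PBS tumors. Zbtb46, the largest part of each sum, overlapped between groups. Batf3 was lower in the GB2 group, at a log2 fold change of -0.58, with groups that overlapped. Sums of adipocyte markers overlapped at 1.73 to 22.0 CPM and 21.2 to 28.4 CPM over 5 genes, while their mean log2 CPM differed by 1.42 (exact permutation test, p = 0.1), with PBS tumor 3 the lowest sum. Sums of T cell markers (0.368 to 5.65 CPM and 0.643 to 3.78 CPM over 7 genes) and of B cell markers (0.575 to 1.32 CPM and 0.512 to 1.20 CPM over 5) overlapped, with none past the limits. Smooth muscle and pericyte sums (55.2 to 76.0 CPM and 67.9 to 95.0 CPM over 6 genes) and keratinocyte sums (20.8 to 83.5 CPM and 67.7 to 117 CPM over 6) overlapped as well, and of 3 eosinophil markers none reached the filter. The part of these cells in the results for the 10 genes was not tested beyond the ratios that follow.

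Set against the mean log2 CPM of the macrophage markers in the same tumor, Alox5ap no longer separated the groups. The difference was -1.50, -1.90 and -1.92 in the PBS group against -1.58, -1.92 and -2.13 in the GB2 group. The group means differed by -0.10 on the log2 scale (exact permutation test, p = 0.6), and by -0.35 against Csf1r alone (p = 0.3, exact). For Ptgs2, Ptges, Ptger2, Ptger4, Alox5 and Cysltr1 the difference ran from -0.28 to -0.68 and the groups overlapped. Ptgs1 and Ptger1 were lower relative to these markers in every GB2 tumor than in any PBS tumor, by -2.09 and -1.52 on the log2 scale (exact permutation test, p = 0.1 for each), Ptgs1 having nearly equal group means in CPM. The mean of these markers was itself 1.83 higher in the GB2 group on the log2 scale. A gene with little change between groups therefore falls against it, and how many tested genes do so was not counted. The lower place of Ptgs1 and Ptger1 was not particular to macrophage markers. Ptgs1 was lower in every GB2 tumor relative to neutrophil (-2.19), mast cell (-2.40), fibroblast (-1.82) and endothelial markers (-1.33) too, and Ptger1 relative to the first 3 of these (-1.63, -1.83 and -1.25), while its groups overlapped relative to endothelial markers (-0.76). Only tested markers entered these means, 6 of 9 for neutrophils and 5 of 9 for mast cells. Among them Cxcr2, Retnlg, Mmp8, Cpa3 and Tpsb2 reached the filter limit in only 1 or 2 PBS tumors. These markers entered the test through their GB2 values, so the neutrophil and mast cell means lean on markers high in the GB2 group. The 10 genes were set against 5 marker lists, and 0.1 is the smallest p that each of these 50 comparisons can give, so none could pass a limit of 0.05 before or after adjustment. Alox5ap also overlapped relative to neutrophil markers, by -0.21, and relative to mast cell markers, by -0.41, and Cysltr1 was lower in each GB2 tumor relative to mast cell markers, by -0.78 (exact permutation test, p = 0.1). Relative to fibroblast markers Alox5ap differed by 0.16, Ptgs2 by -0.01 and Ptges by -0.30, all with groups that overlapped, and relative to endothelial markers Alox5ap remained higher in each GB2 tumor, by 0.66 (exact permutation test, p = 0.1).

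**Figure D5:**
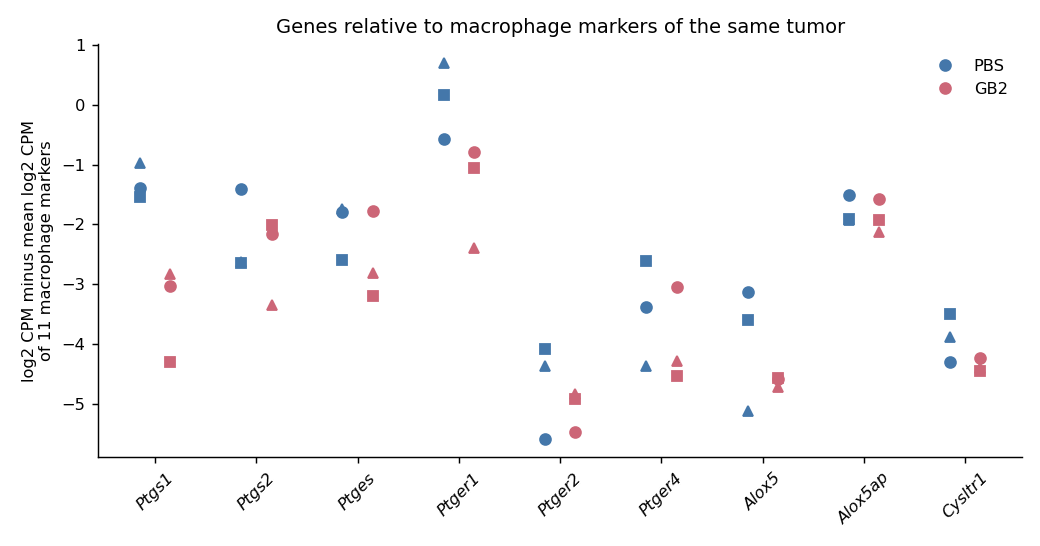
Log2 CPM of each gene minus the mean log2 CPM of 11 macrophage markers of the same tumor, for 3 PBS and 3 GB2 tumors, without Ptger3. Ptgs1 and Ptger1 are lower in every GB2 tumor, and the other 7 genes drawn overlap between groups, among them Alox5ap (means of -1.78 and -1.88). The marker mean itself is 1.83 higher in the GB2 group, so a gene with little change falls against it.

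The genes whose pattern over the 6 tumors was closest to that of Alox5ap, by the root-mean-square difference of mean-centered log2 CPM, were Gm12734 (0.129), Lfng (0.134), Col5a2 (0.139), Gas6 (0.159) and Pilra (0.167). For Ptgs1 they were Lgr5 (0.145), Limch1 (0.149), Slc35f1 (0.167), Gm4835 (0.172) and Klhl13 (0.202). Lgr5, a marker of intestinal stem cells, had 5.51, 3.92 and 3.56 CPM in the PBS group against 3.48, 1.51 and 6.68 CPM in the GB2 group. Like Ptgs1, it was lowest in GB2 tumor 2 and highest in GB2 tumor 3, which restates the likeness by which it was picked.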

How the data were processed

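RNA was measured in 6 bulk tumors by poly-A selected, stranded (dUTP), paired-end RNA-seq. The submitters' processing notes name cutadapt 1.9, HISAT2 2.2.1, StringTie 2.1.6, DESeq2, edgeR and the mm10 build. The authors deposited estimated counts, whole numbers not scaled between tumors, and FPKM values, divided by transcript length and library total, for 33965 genes. Of 31999 gene IDs shared with GRCm38, 641 (2.00%) have the same start and end, so positions are given as in the table. Counts were analyzed in R 4.3.3 with edgeR 4.0.16: filterByExpr (minimum count 10), TMM scaling, glmQLFit and glmQLFTest, with Benjamini-Hochberg adjustment over 19602 genes. Limits were p under 0.05 and 2-fold. The log2 CPM used a prior count of 2. Ratios and marker comparisons used FPKM plus 0.01 or log2 CPM and an exact two-sided permutation test over tumors. Tumors of a group varied with a common dispersion of 0.164 (biological coefficient of variation 40.5%). The fit was first tested on simulated data of 18820 genes. There edgeR found 0 of 76 genes changed 2-fold, 34 of 73 changed 4-fold and 30 of 40 changed 8-fold, and called 12 unchanged genes. DESeq2 found 19, 55 and 38 of the same sets and called 67 unchanged genes. DESeq2 1.42.0 and limma 3.58.1 were alternatives, and figures were drawn with matplotlib 3.10.9.

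All 10 genes are named. Of the other pathway lists, genes with an unadjusted p under 0.05, genes with groups apart and the most abundant gene of each list are named, and Ptges2, Ptges3, Hpgd, Hpgds, Lta4h, Ltc4s, Alox15, Ltb4r1 and genes under the filter were added as context after their values were seen. The members and the gene lists were chosen with earlier results of these data known, and the KEGG and GO terms were added after the table was read. No sequencing batch is given in the sources used here, so none was tested. Protein sequences were not used here. Part of the check for overlapping genes is not reported here.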

Additional observations from a re-analysis of the deposited data

How the results depend on the processing

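Alox5ap kept its direction and stayed past the unadjusted limits in all 18 alternatives. DESeq2 called 385 genes and 1 of the 10 members, edgeR's likelihood ratio test 255 and 1, and every other alternative 0 and 0. The members past the unadjusted limits numbered 1 with limma on log2(FPKM + 1), where 1 of the other pathway genes was past them and fold changes of low genes are compressed by construction, and from 1 to 3 when each tumor was left out in turn. A minimum count of 40 and counts divided by 4 tested 6 members. Near-zero differences changed sign. Ptgs1 was 0.0094 under upper-quartile scaling, 0.0625 under total-count scaling, 0.0064 with limma on log2(FPKM + 1) and from -0.66 to 0.39 with each tumor left out. Cotl1 was 0.016 and 0.0629 under these scalings, 0.0099 without a filter, 0.0738 and 0.0743 with limma at pseudocounts of 1 and 0.1, and from -0.062 to 0.053 with each tumor left out. Ptgds ran from -0.17 to 0.32 and Fads2 from -0.063 to 0.31. The cause was not tested. Tumor numbers gave no pairing: deviations of tumors with the same number correlated at 0.0313, 0.154 and -0.245, and 1 of 6 tumors correlated best with its own number. With the replicate number as a block, 3 members were past the limits (Alox5ap, Ptges and Ptgs2), and Ptgds was at -0.0018. Ptger2, Ptger3, Alox5 and Cysltr1 had counts of a few read pairs in some or all tumors. With 3 tumors per group, these genes allow little precision.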
